A study of Mus musculus with 4 samples.

Results

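The 10 guidance genes described here are the secreted ligands Slit2, Slit3, Ntn1 and Ntn4 and the receptors Robo1, Robo2, Robo4, Unc5b, Unc5c and Dcc. They were taken by symbol from the 32285 genes counted in single nuclei of mouse liver, and each of the 10 symbols matched 1 gene. They were selected on their levels in cell classes and their differences between genotypes in these same libraries, so those values are given as a description.

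All 4 libraries came from male mice that ate a DDC diet for 4 weeks, starting at 10 to 11 weeks of age. DDC (3,5-diethoxycarbonyl-1,4-dihydrocollidine) is a feed additive that injures bile ducts and leads to ductular reaction and scarring around them. The 2 WT libraries are from wild-type mice, and the 2 CKO libraries are from mice whose hepatic progenitor cells lack Rbpj. Rbpj is the DNA-binding protein through which Notch receptors act on their target genes. The Cre driver, the deleted exons and the number of mice per library are not given in the sources used here, so p-values measure only the spread between these libraries.

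Slits are large secreted proteins that bind Robo receptors, and netrins are laminin-related proteins that bind Dcc and Unc5 receptors. Both families were first known for steering growing axons. They also act on blood vessels, where Robo4 and Unc5b are receptors of endothelial cells. Robo receptors have also been described in stellate cells, the vitamin A-storing pericytes that turn into matrix-making cells in injured liver.

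The start regions of 4 members are shown because each of these genes had its highest level in a particular class of nuclei and has promoter bases outside its annotated transcript. They are the bases before the GENCODE M21 gene start, taken from the RefSeq promoter table for GRCm38.p6 and written 5′ to 3′ on the gene's strand. Bases inside the GENCODE gene were left out, so the Robo4 and Slit2 windows end 75 and 17 bases before the RefSeq start. Those bases were not searched. Of 3 Robo2 entries, the one nearest to the gene start is shown. Capitals mark GGAA, the core of ETS-family sites, on either strand (TTCC on the other one).
Slit2, the ligand of cholangiocyte-like and vessel-type nuclei, chr5:47982905-47983137, plus strand: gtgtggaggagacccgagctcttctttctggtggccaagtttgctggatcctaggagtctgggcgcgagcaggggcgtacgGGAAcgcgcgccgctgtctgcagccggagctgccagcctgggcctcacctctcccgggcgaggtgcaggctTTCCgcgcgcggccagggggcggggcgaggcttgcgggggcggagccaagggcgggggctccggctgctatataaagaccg
Robo2, the receptor of mesenchymal-like nuclei, chr16:74411826-74412075, minus strand: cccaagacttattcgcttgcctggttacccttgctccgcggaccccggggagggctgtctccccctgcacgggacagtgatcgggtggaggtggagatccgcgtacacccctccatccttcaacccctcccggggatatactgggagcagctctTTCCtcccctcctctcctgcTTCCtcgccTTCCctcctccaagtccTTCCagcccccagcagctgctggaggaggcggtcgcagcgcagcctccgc
Robo4, the receptor of endothelial-like nuclei, chr9:37401722-37401896, plus strand: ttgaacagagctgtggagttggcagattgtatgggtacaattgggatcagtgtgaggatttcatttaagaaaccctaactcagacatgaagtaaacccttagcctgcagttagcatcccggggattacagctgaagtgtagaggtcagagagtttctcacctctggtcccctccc
Unc5b, the netrin receptor of mesenchymal-like nuclei, chr10:60831582-60831831, minus strand: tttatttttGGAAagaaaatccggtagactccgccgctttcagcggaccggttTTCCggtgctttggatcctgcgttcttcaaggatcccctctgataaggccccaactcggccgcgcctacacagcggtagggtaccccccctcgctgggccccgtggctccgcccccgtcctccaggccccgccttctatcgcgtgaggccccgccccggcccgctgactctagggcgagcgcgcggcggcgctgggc
The Slit2 window is 233 bases long and 70.4% G or C, that of Robo2 250 bases and 65.6%, that of Unc5b 250 bases and 66.8%, and that of Robo4 175 bases and 47.4%. Among 32851 promoters cut to the same lengths the median was 51.9% for 233 bases, 52.4% for 250 bases and 51.4% for 175 bases. GGAA occurred 2 times in the Slit2 window, 4 times in that of Robo2, 2 times in that of Unc5b and 0 times in that of Robo4. It is common: 92.1% of promoters cut to 233 bases hold it, 93.4% at 250 bases and 85.9% at 175 bases. TGGGAA, the core bound by Rbpj, which contains GGAA, was found in none of these 4 windows, and 20.3%, 21.6% and 15.9% of promoters hold it at 233, 250 and 175 bases.

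The libraries held 45620141 and 13914845 UMIs (unique molecules) in 16000 and 6480 barcodes for WT replicates 1 and 2, and 38003108 and 12261329 UMIs in 16000 and 5184 barcodes for CKO replicates 1 and 2. After doublet removal 39017 barcodes remained, of which 18279 fell in clusters that could be named by markers and 20738 did not. Clusters were built without the members. Levels below are UMIs of a gene relative to all UMIs in the summed nuclei of a class and library, on the CPM scale, and the CPM of different genes are not compared. Free RNA, molecules from broken cells captured with every nucleus, was estimated from unnamed barcodes. It made up 70.2% and 72.9% of UMIs in WT and 79.1% and 84.5% in CKO endothelial-like nuclei, and 55.3% and 60.8% in WT and 66.5% and 71.7% in CKO mesenchymal-like nuclei. In the plot of free RNA by class, CKO lay above WT in each of these. Its part in the genotype differences was not tested, but levels left after subtracting it are given for the main results, with the members whose order of genotypes it changed. Levels after subtraction are relative to the UMIs left in a class and library, so they rise even where a gene lost no UMIs. In endothelial-like and mesenchymal-like nuclei a smaller share was left in CKO, so this raised CKO levels more. Barcodes shared between 2 libraries numbered 19 to 114 per pair. Rbpj itself was at 81.4 and 66.9 CPM in WT and 73.5 and 39.98 CPM in CKO cholangiocyte-like nuclei, the last from 4 UMIs. Since the deleted exons are not given, these 3′ counts do not check the deletion.

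**Figure D1:**
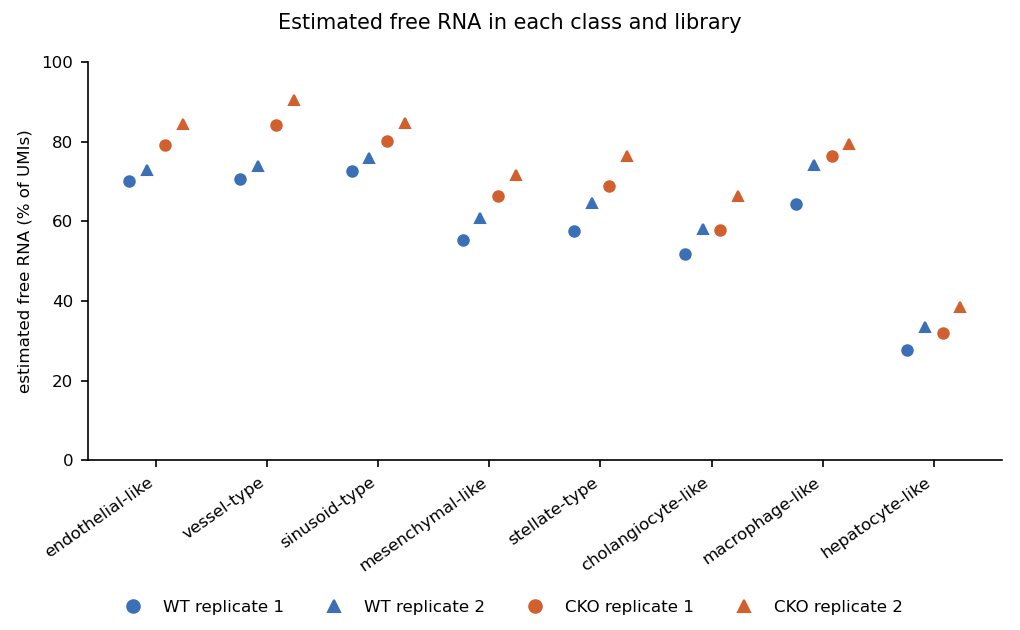
Estimated share of UMIs from free RNA (%) in each class, 1 point per library, WT in blue and CKO in orange, with circles for replicate 1 and triangles for replicate 2. In endothelial-like nuclei the WT libraries lay at 70.2% and 72.9% and the CKO libraries at 79.1% and 84.5%.

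Among the ligands, Slit3 (chromosome 11, 35121224 to 35708507, plus strand, mm10) was concentrated, among the main classes, in vessel-type endothelial nuclei. These are the sub-clusters in which markers of arteries and veins were raised over the other endothelial sub-clusters, a name given by sub-cluster and not by library. Slit3 stood at 133 and 177 CPM there in WT replicates 1 and 2 (79 and 14 UMIs), and at 16.8 and 0 CPM in CKO replicates 1 and 2 (6 and 0 UMIs). Both CKO libraries were below both WT libraries. The empty CKO library holds only 24 vessel-type nuclei, and 3 UMIs there would be 70.6 CPM, so a level up to that was not detectable at this depth. The fitted difference was -3.09 ± 0.60 on the log2 scale (CKO minus WT, SE, 2 libraries per genotype), and in all endothelial-like nuclei it was -3.36 ± 0.56.

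Slit3 UMIs were found in 12.3% of WT replicate 1 vessel-type nuclei (95% Clopper-Pearson interval 8.48% to 16.9%) and 14.0% of those of WT replicate 2 (5.30% to 27.9%). The share was 3.07% (upper bound 7.01%) in CKO replicate 1 and 0% (0% to 14.2%) in CKO replicate 2. These intervals cover counting error only, and the share in CKO replicate 2 cannot be told apart from those of WT. Thinning each nucleus to 1400 UMIs gave 9.88% and 11.6% for WT, 1.84% for CKO replicate 1 and 0% for CKO replicate 2. In hepatocyte-like nuclei, which have more UMIs per nucleus (median 5346 against 2214 in vessel-type nuclei of WT replicate 1), at most 0.508% held Slit3. Subtracting free RNA left 78 and 14 Slit3 UMIs in WT and 6 and 0 in CKO. Relative to the UMIs left, that was 409 and 539 CPM in WT and 89.9 and 0 CPM in CKO, so the order of the genotypes was the same. The higher values come from the smaller totals, since free RNA was 70.6% and 73.8% of UMIs in WT and 84.1% and 90.5% in CKO vessel-type nuclei.

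Vessel-type nuclei formed a pair of sub-clusters, and their mix differed between genotypes. The sub-cluster led by Col8a1, Dkk2 and Bmx held 41.1% and 46.5% of vessel-type nuclei in WT, but 19.0% and 4.17% in CKO. Slit3 stood at 280 and 245 CPM in it in WT and at 68.5 CPM in CKO replicate 1 (5 UMIs), while CKO replicate 2 had 1 nucleus. In the other sub-cluster, led by Gm36723, Slc45a4 and Vegfc, Slit3 was at 23.6 and 119 CPM in WT and at 3.53 and 0 CPM in CKO. In both sub-clusters CKO replicate 1 was below both WT libraries. Of the fixed vessel markers, 12 in number, the summed level was also lower in CKO vessel-type nuclei: 3711 and 3562 CPM in WT against 2122 and 706 CPM in CKO, with 1 of the 12 at 0. The 9 sinusoid markers summed to 1749 and 1242 CPM in WT and 889 and 1364 CPM in CKO vessel-type nuclei. In CKO replicate 2 that is above the vessel markers. The part of the mix or of these marker levels in the Slit3 difference was not tested.

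**Figure D2:**
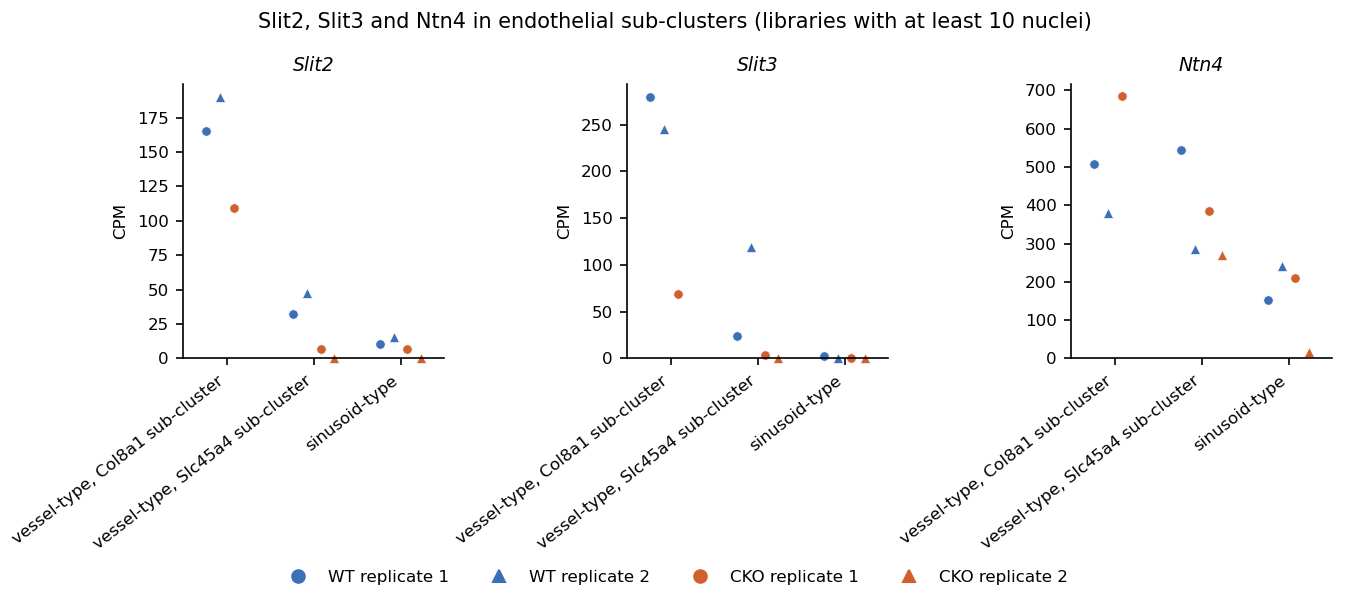
Slit2, Slit3 and Ntn4 (CPM) in the 2 vessel-type sub-clusters and in sinusoid-type nuclei, 1 point per library with at least 10 nuclei, WT in blue and CKO in orange. Slit3 in the Col8a1 sub-cluster lay at 280 and 245 CPM in WT and 68.5 CPM in the 1 CKO library shown.

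Outside vessel-type nuclei Slit3 was low, apart from small classes. Smooth-muscle-type nuclei had 0 to 140 CPM from 15 UMIs in all, with means of 40.6 CPM in WT and 70.0 CPM in CKO. Slit3 was among the leading genes of that sub-cluster. Slit3 reached 91.4 and 365 CPM in WT and 86.7 and 50.2 CPM in CKO mesothelial-like nuclei, which line the liver surface, from 12, 13, 3 and 3 UMIs. Sinusoid-type nuclei had 2.45 and 0 CPM in WT and 0.797 and 0 CPM in CKO. In stellate-type nuclei Slit3 was at 11.3 and 10.6 CPM in WT and 13.8 and 17.2 CPM in CKO, the reverse order to that in vessels, from 12, 2, 9 and 2 UMIs.

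Slit2 (chromosome 5, 47983138 to 48307733, plus strand), the paralog of Slit3, was highest in cholangiocyte-like nuclei, which resemble the bile duct epithelium. Its level there was 183 and 143 CPM in WT and 95.1 and 120 CPM in CKO, from 845, 98, 141 and 12 UMIs. Both CKO libraries lay below both WT libraries, and the fitted difference was -0.65 ± 0.25 (log2, SE). After subtraction of free RNA the levels were 356 and 305 CPM in WT and 219 and 278 CPM in CKO. Slit2 was found in 28.2% and 19.8% of WT and 15.6% and 17.4% of CKO cholangiocyte-like nuclei, and the summed level of the 13 cholangiocyte markers was 8933 and 8064 CPM in WT against 7252 and 6198 CPM in CKO.

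Among the main classes Slit2 was next highest in vessel-type nuclei. The values were 89.3 and 114 CPM in WT and 28.0 and 0 CPM in CKO (53, 9, 10 and 0 UMIs), with no overlap of the genotypes, and the fitted difference was -1.74 ± 0.58. Subtracting free RNA left 246 and 346 CPM in WT and 135 and 0 CPM in CKO. Like Slit3, Slit2 was higher in the Col8a1 sub-cluster, at 166 and 190 CPM in WT and 109 CPM in CKO replicate 1, than in the Slc45a4 sub-cluster, at 32.4 and 47.5 CPM in WT and 7.05 and 0 CPM in CKO. Over the 4 libraries the mean was 135 ± 37.3 CPM (SD, n = 4) in cholangiocyte-like and 57.9 ± 52.9 CPM in vessel-type nuclei, and those ranges overlap. Hepatocyte-like nuclei had at most 5.76 CPM. Small classes also held some Slit2: mesothelial-like nuclei had 60.9 and 0 CPM in WT and 57.8 and 0 CPM in CKO (10 UMIs in all), and central-vein-type endothelial nuclei had 56.4 CPM in CKO replicate 1 and 0 CPM in the other 3 libraries. Of 483 vessel-type nuclei 40 held Slit2, 42 held Slit3 and 8 held both.

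Ntn4 (chromosome 10, 93640681 to 93747207, plus strand), a netrin of vascular basement membranes, was also highest in vessel-type nuclei but did not follow the Slits across genotypes. Its level was 529 and 330 CPM in WT and 446 and 306 CPM in CKO, so the genotypes overlapped, and the fitted difference was -0.00 ± 0.38. With free RNA subtracted they overlapped too, at 1587 and 1000.1 CPM in WT and 2233 and 1164 CPM in CKO. The unsubtracted level did not overlap that of any of the other 5 main classes. In the Col8a1 sub-cluster Ntn4 was at 508 and 381 CPM in WT and 685 CPM in CKO replicate 1, where Slit3 was low. In the Slc45a4 sub-cluster it was at 545 and 285 CPM in WT and 384 and 269 CPM in CKO. Ntn4 was detected in 260 of the 483 vessel-type nuclei, 24 of which also held Slit3.

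Sinusoid-type nuclei had less Ntn4 than vessel-type nuclei, at 153 and 242 CPM in WT and 209 and 16.7 CPM in CKO. The low library, CKO replicate 2, held 3 Ntn4 UMIs in 100 nuclei, and the other 3 libraries lay close together. The fitted difference was -0.40 ± 0.62. Without CKO replicate 1, which leaves that low library as the only one of its genotype, it was -3.18 and passed the threshold (edgeR adjusted p = 0.0197). In cholangiocyte-like nuclei Ntn4 lay between 50.0 and 64.1 CPM in all 4 libraries.

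Ntn1 (chromosome 11, 68209364 to 68400823, minus strand), the founding netrin ligand of Dcc and Unc5 receptors, was a gene of stellate-type nuclei. It stood at 384 and 333 CPM in WT and 333 and 249 CPM in CKO, from 409, 63, 218 and 29 UMIs. Those ranges touch, and the fitted difference was -0.15 ± 0.33. Subtracting free RNA left 866 and 827 CPM in WT and 1012 and 773 CPM in CKO, which overlap. Among the main classes the next was cholangiocyte-like nuclei, with at most 70.0 CPM. Central-vein-type endothelial nuclei, a small class, had 0 to 94.0 CPM from 21 UMIs in all. Within the mesenchymal-like nuclei Ntn1 was low in fibroblast-type nuclei, at 38.6 and 21.7 CPM in WT and 13.9 CPM in CKO replicate 1. Smooth-muscle-type nuclei had 234 and 37.2 CPM in WT and 80.0 CPM in CKO replicate 1.

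**Figure D3:**
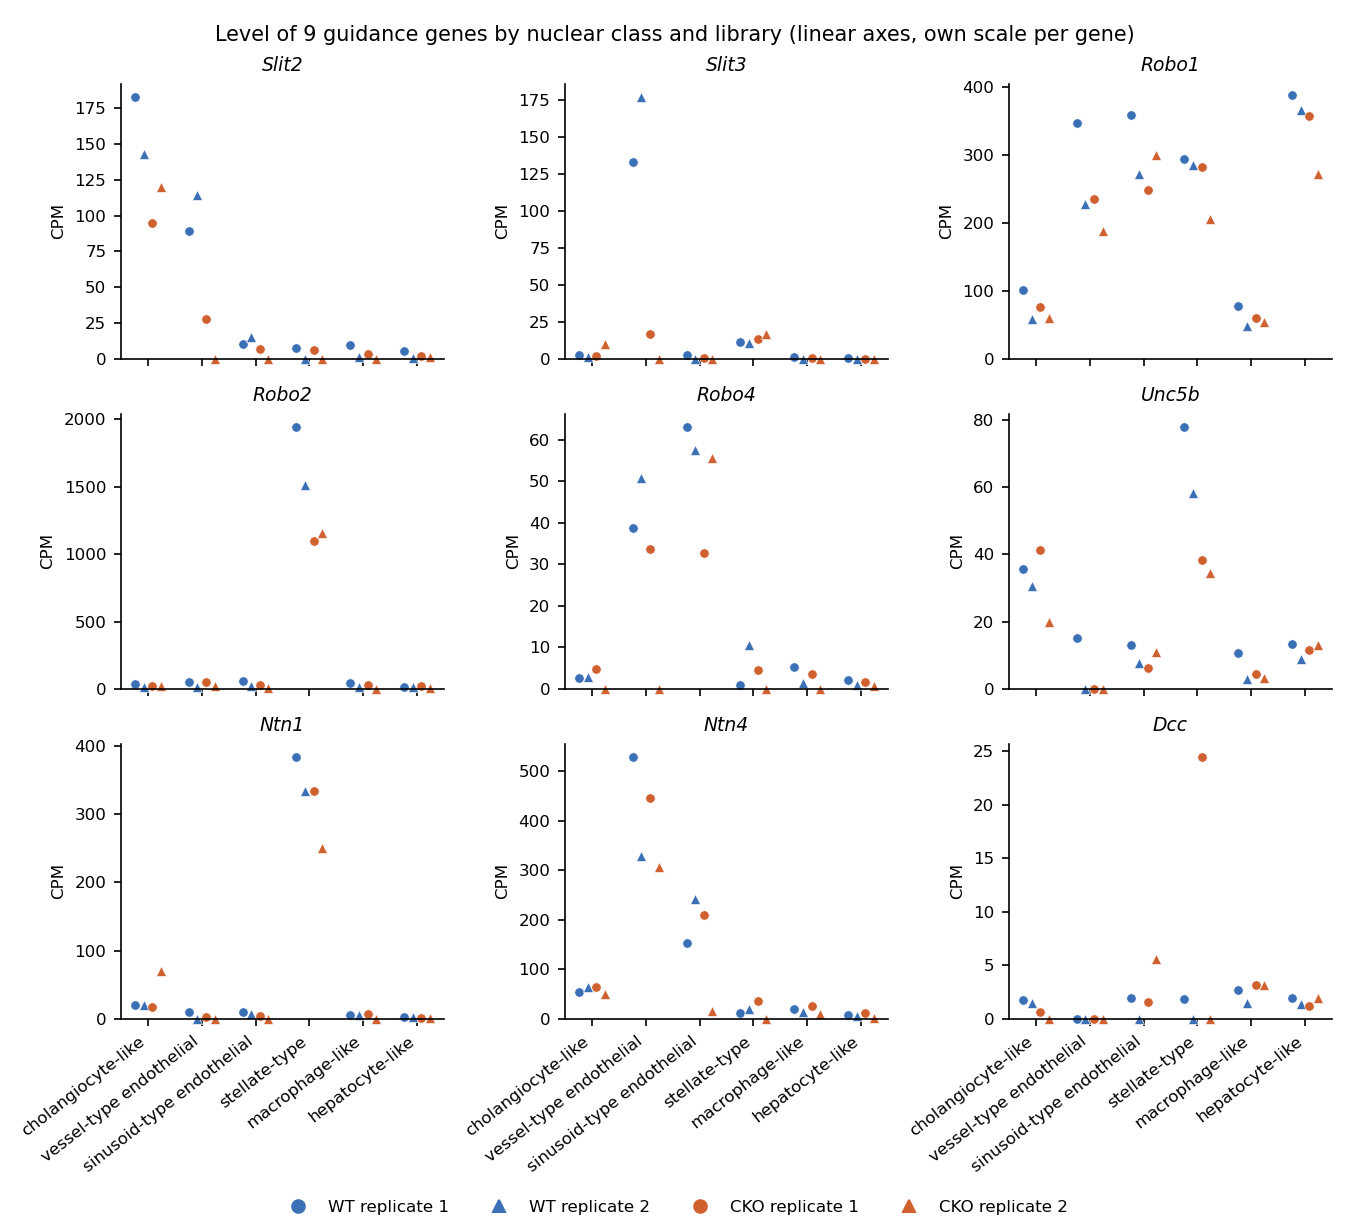
CPM of 9 members in 6 classes, 1 point per library, WT in blue and CKO in orange, with circles for replicate 1 and triangles for replicate 2. Slit3 and Ntn4 peak in vessel-type, Slit2 in cholangiocyte-like, and Robo2 and Ntn1 in stellate-type nuclei.

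Of the receptors, Robo2 (chromosome 16, 73891839 to 74411825, minus strand), which binds Slits, marked the mesenchymal-like nuclei. In stellate-type nuclei it reached 1944 and 1508 CPM in WT and 1095 and 1153 CPM in CKO, from 2071, 285, 716 and 134 UMIs, and was read in 79.4% to 93.3% of nuclei. No other main class exceeded 59.7 CPM. Both CKO libraries were below both WT libraries, with a fitted difference of -0.46 ± 0.38. With free RNA subtracted Robo2 was at 4353 and 3713 CPM in WT and 3291 and 3547 CPM in CKO.

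Robo2 was not particular to stellate-type nuclei within the mesenchymal-like class. The values were 2437 and 2301 CPM in WT and 2009 CPM in CKO replicate 1 for fibroblast-type, and 3311 and 4017 CPM in WT and 3540 CPM in CKO replicate 1 for smooth-muscle-type nuclei. The stellate sub-cluster led by Lsamp had the lowest Robo2 in WT, at 1333 and 1170 CPM, and 661 and 751 CPM in CKO. That sub-cluster held 46.4% and 36.8% of WT but 4.53% and 9.52% of CKO stellate-type nuclei. The part of this mix in the Robo2 difference was not tested.

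Robo1 (chromosome 16, 72308306 to 73046095, plus strand), the other broad Slit receptor, was not confined to a class. It stood at 388 and 366 CPM in WT and 358 and 271 CPM in CKO hepatocyte-like nuclei. In vessel-type nuclei it was at 347 and 228 CPM in WT and 235 and 188 CPM in CKO, and in stellate-type nuclei at 295 and 286 CPM in WT and 283 and 206 CPM in CKO. The ranges of hepatocyte-like, sinusoid-type, stellate-type and vessel-type nuclei overlapped from one to the next. Cholangiocyte-like nuclei lay lower, at 58.2 to 102 CPM, and macrophage-like nuclei had 77.5 and 48.0 CPM in WT and 59.7 and 54.5 CPM in CKO. Free RNA accounted for all of the macrophage-like level by the estimate, since subtraction left 0 CPM in each of the 4 libraries. The fitted differences were -0.20 ± 0.23 in hepatocyte-like and -0.27 ± 0.36 in vessel-type nuclei.

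Robo4 (chromosome 9, 37401897 to 37415115, plus strand), the Robo receptor of endothelial cells, was found mainly in endothelial-like nuclei. It was at 55.9 and 54.6 CPM in WT and 35.2 and 40.1 CPM in CKO, from 179, 24, 72 and 11 UMIs, with no overlap between genotypes. The fitted difference was -0.40 ± 0.30. Subtracting free RNA brought the levels to 166 and 178 CPM in WT and 145 and 156 CPM in CKO. Sinusoid-type nuclei (63.1 and 57.5 CPM in WT, 32.7 and 55.6 CPM in CKO) and vessel-type nuclei (38.8 and 50.7 CPM in WT, 33.6 and 0 CPM in CKO) overlapped. Within each of these the genotypes overlapped after subtraction, at 203 and 199 CPM in WT and 137 and 234 CPM in CKO for sinusoid-type, and 110 and 154 CPM in WT and 150 and 0 CPM in CKO for vessel-type nuclei. Central-vein-type nuclei, a small class, had 55.5 to 119 CPM of Robo4 from 19 UMIs in all. Their means were 65.2 CPM in WT and 92.4 CPM in CKO, the reverse order. Lymphatic-type nuclei had 0 to 96.8 CPM from 5 UMIs in all. Among 2649 endothelial-like nuclei 1143 held Robo1, 259 held Robo4 and 122 held both.

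Unc5b (chromosome 10, 60762593 to 60831581, minus strand), a netrin receptor known from endothelial tip cells, was here highest in mesenchymal-like rather than endothelial-like nuclei. Fibroblast-type nuclei had 296 and 217 CPM in WT and 279 CPM in CKO replicate 1, and smooth-muscle-type nuclei 173 and 112 CPM in WT and 80.0 CPM in CKO replicate 1. In stellate-type nuclei Unc5b was lower, at 77.9 and 58.2 CPM in WT and 38.2 and 34.4 CPM in CKO. Both CKO libraries were below both WT libraries there, and the fitted difference was -0.80 ± 0.39. Subtracting free RNA left 167 and 131 CPM in WT and 108 and 107 CPM in CKO. In all mesenchymal-like nuclei it was -0.69 ± 0.26, and fibroblast-type nuclei, where Unc5b is high, numbered 75 and 18 in WT and 28 and 1 in CKO.

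Endothelial-like nuclei held few Unc5b UMIs, 66 and 4 in WT and 8 and 2 in CKO, or 20.6 and 9.10 CPM in WT and 3.91 and 7.30 CPM in CKO. The fitted difference was -1.72 ± 0.60. With free RNA subtracted the genotypes overlapped, at 46.0 and 14.9 CPM in WT and 4.52 and 15.6 CPM in CKO. Vessel-type nuclei had 9 Unc5b UMIs in WT replicate 1 and 0 in the other 3 libraries. An unnamed endothelial sub-cluster led by Ephb1 and Nav3, with 19, 4, 4 and 0 nuclei, had 295 and 291 CPM of Unc5b in WT and 0 CPM in CKO replicate 1. The same sub-cluster had 374 CPM of Slit3 in WT replicate 1, from 19 UMIs of which 12 lay in 1 nucleus.

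**Figure D4:**
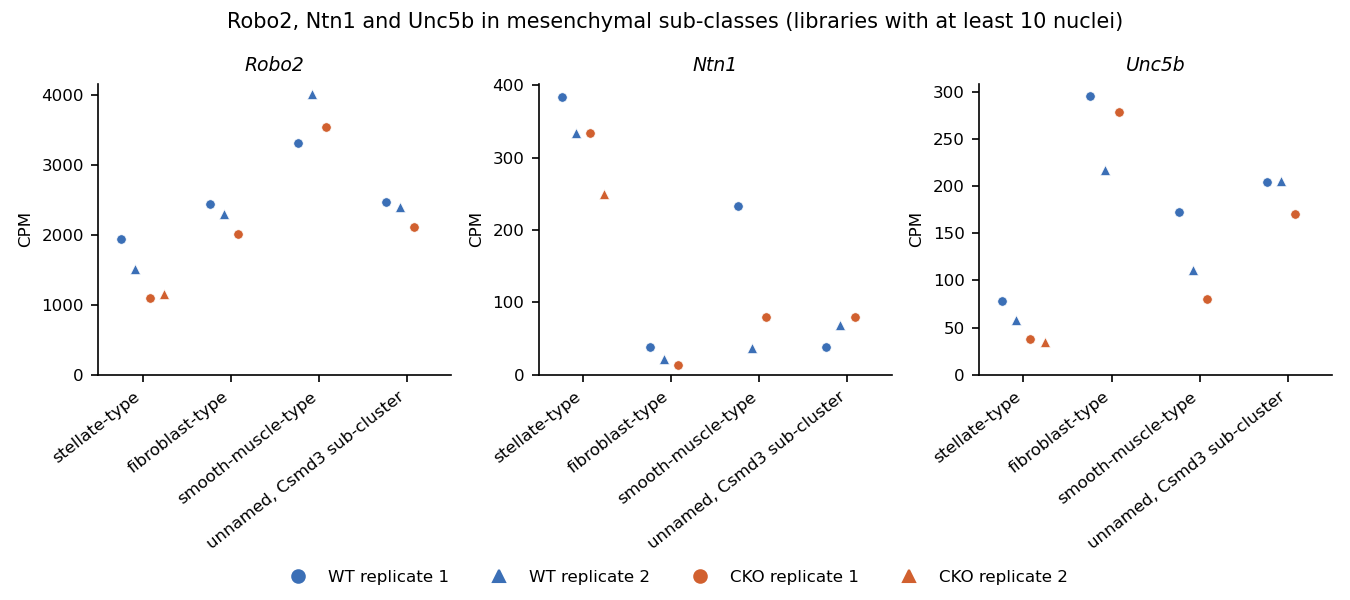
Robo2, Ntn1 and Unc5b (CPM) in mesenchymal-like sub-classes, 1 point per library with at least 10 nuclei, WT in blue and CKO in orange. Unc5b was at 217 to 296 CPM in fibroblast-type and at 34.4 to 77.9 CPM in stellate-type nuclei, and Ntn1 was in the opposite order.

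Unc5c and Dcc, the remaining netrin receptors, were near the limit of detection. Unc5c (chromosome 3, 141465216 to 141834924, plus strand) had 43 UMIs in all named nuclei, 14 of them in cholangiocyte-like nuclei (10, 3, 1 and 0). Dcc had 125 UMIs in named nuclei and 0 in vessel-type nuclei of all 4 libraries. Mesenchymal-like nuclei held 3, 0, 17 and 0 Dcc UMIs, and 13 of the 17 in CKO replicate 1 came from 1 nucleus. UMIs of the netrin ligand Ntn1 and the netrin receptor Unc5b were found together in some nuclei. Of 1375 mesenchymal-like nuclei 561 held Ntn1, 289 held Unc5b and 107 held both. Robo2 was found in 1196 of the mesenchymal-like nuclei, among which 498 also held Ntn1 and 261 also held Unc5b. Whether these joint counts differ from those of independent detection was not tested, nor was the part of free RNA and remaining doublets in them. They do not show that a nucleus makes both transcripts.

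None of the 10 members passed the threshold between genotypes (edgeR's quasi-likelihood test, Benjamini-Hochberg adjusted p under 0.05 over all genes tested) in any of 8 classes fitted. In endothelial-like nuclei 8 members could be tested and 0 passed, against 0% of 10108 genes. In vessel-type nuclei it was 0 of 5, against 0.0240% of 4175 genes. In mesenchymal-like and stellate-type nuclei it was 0 of 6 and 0 of 4, each against 0% of 8635 and 6443 genes. The other 4 classes (sinusoid-type, cholangiocyte-like, macrophage-like and hepatocyte-like) had 0 of 4, 0 of 6, 0 of 4 and 0 of 7, against 0% of the genes in each. At an unadjusted p under 0.05 (edgeR) there were 2 members in endothelial-like nuclei (Slit3 and Unc5b), against 526 of 10108 genes. In vessel-type nuclei there were 2 (Slit3 and Slit2), against 278 of 4175 genes. Mesenchymal-like nuclei had 1 (Unc5b), against 649 of 8635, and cholangiocyte-like nuclei 1 (Slit2), against 532 of 10496. There were none elsewhere, against 346 of 8383 genes in sinusoid-type and 343 of 6443 in stellate-type nuclei. Macrophage-like nuclei had 513 of 11429 such genes and hepatocyte-like nuclei 229 of 13373. DESeq2 called none of the members in these 8 classes. The choice of members used these contrasts, so these counts are a description too.

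The 1 gene that passed in vessel-type nuclei was Col8a1, a collagen of vessel walls and a leading gene of the vessel-type sub-cluster with the higher Slit3 level, named here after its values were seen. It had 193 and 12 UMIs in WT and 5 and 0 in CKO (log2 difference -4.19 ± 0.58 SE, edgeR adjusted p = 0.0473). Slit3 had an edgeR adjusted p of 0.346 in vessel-type and 0.288 in endothelial-like nuclei. With no count filter these became 0.00431 and 3.27e-05 (edgeR adjusted p), and with replicate number as a block the vessel-type value was 0.0497. Leaving out CKO replicate 2, the library with 24 vessel-type nuclei, gave -2.87 in vessel-type nuclei (edgeR adjusted p = 7.34e-05) and -3.15 in endothelial-like nuclei (1.71e-07), where Unc5b then also passed at -2.001 (edgeR adjusted p = 0.0132). Those fits have 1 CKO library, which is assumed to vary as the WT libraries do.

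**Figure D5:**
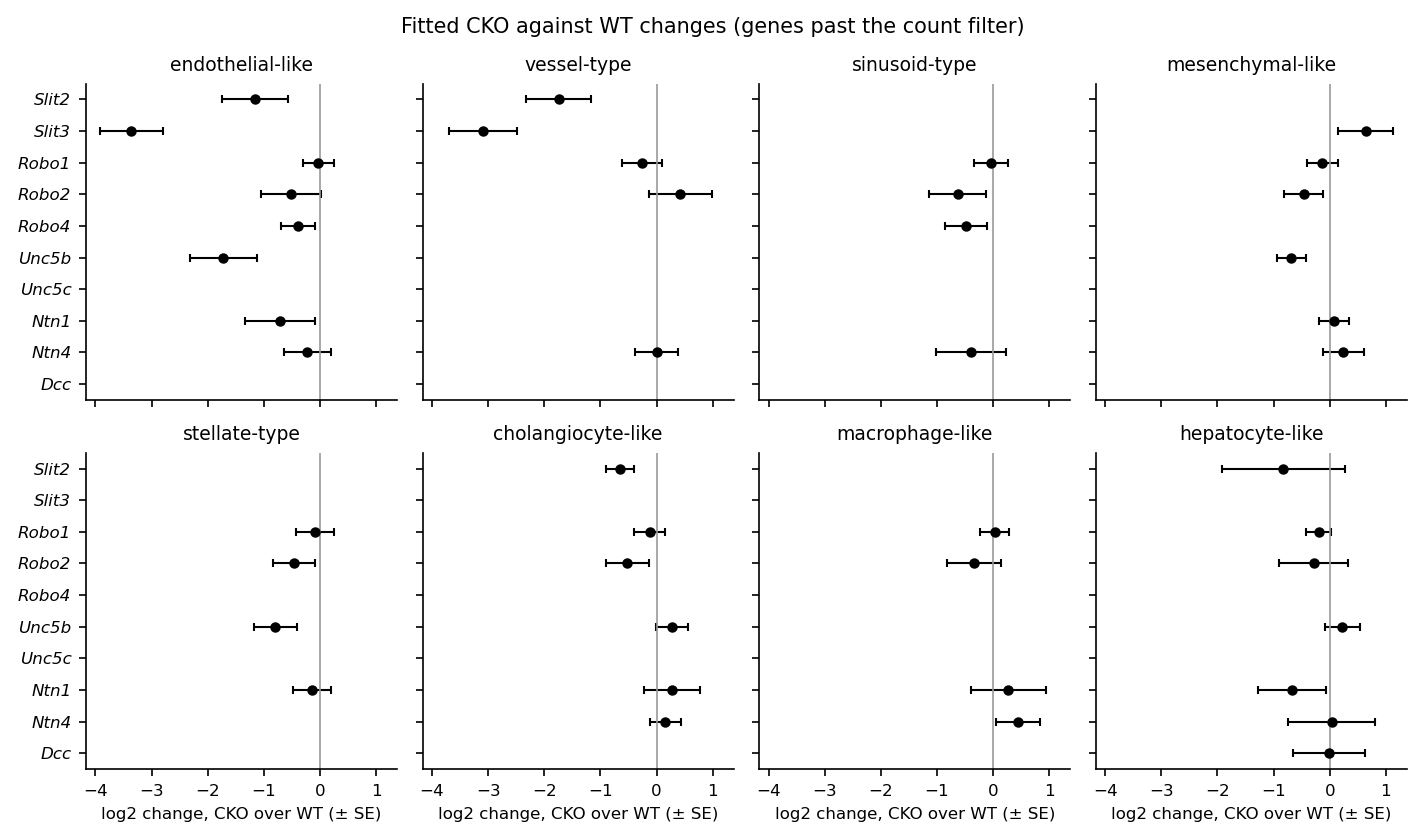
Fitted log2 difference (CKO minus WT) of the members tested in each of 8 classes, points with SE bars from edgeR over 2 libraries per genotype. Slit3 lies at -3.36 in endothelial-like and -3.09 in vessel-type nuclei, and Ntn4 in vessel-type nuclei at -0.00.

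Levels were also compared library by library, for members and for all genes with at least 10 UMIs in a class. In endothelial-like nuclei 8 members had that many, of which 5 (Slit2, Slit3, Robo4, Unc5b and Ntn1) had both CKO levels below both WT levels and 0 had both above, against 26.5% and 7.00% of genes. In vessel-type nuclei 3 of 6 were below (Slit2, Slit3 and Robo4) and 0 above, against 25.3% and 8.76%. Sinusoid-type nuclei had 3 of 7 below (Slit2, Ntn1 and Robo4) and 0 above, against 24.0% and 7.34%. Mesenchymal-like nuclei had 3 of 9 below (Slit2, Robo2 and Unc5b) and 0 above, against 27.1% and 9.33%. In stellate-type nuclei 3 of 8 were below (Robo1, Robo2 and Unc5b) and 1 above (Slit3), against 22.5% and 10.0%. Cholangiocyte-like nuclei had 3 of 10 below (Slit2, Unc5c and Dcc) and 0 above, against 24.9% and 7.53%. Macrophage-like nuclei had 0 of 9 below and 1 above (Dcc), against 23.4% and 7.18%, and hepatocyte-like nuclei had 2 of 10 below (Robo1 and Ntn1) and 0 above, against 18.2% and 7.54%. These contrasts were used in choosing the members, and nothing is read from the counts.

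With free RNA subtracted, and levels taken relative to the UMIs left, the order of the genotypes was lost for some of these members. In endothelial-like nuclei Unc5b then overlapped between genotypes and Robo1 was higher in both CKO libraries, at 820 and 624 CPM in WT and 823 and 844 CPM in CKO, while Slit2, Slit3, Robo4 and Ntn1 stayed lower. In vessel-type nuclei Slit2 and Slit3 stayed lower and Robo4 overlapped. Robo2, which overlapped before subtraction, was then above, at 5.24 and 0 CPM in WT and 120 and 89.5 CPM in CKO. Those Robo2 levels rest on 1 and 0 UMIs in WT and 8 and 1 in CKO, near the limit of detection. In stellate-type nuclei Robo2 and Unc5b stayed lower and Slit3 higher, and Robo1 overlapped. Slit2 and Robo4 overlapped in sinusoid-type, Slit2 in mesenchymal-like and Dcc in cholangiocyte-like nuclei. In hepatocyte-like nuclei Ntn1 then overlapped and Robo1 stayed lower. Robo4 was lower there, with 5 and 2 UMIs left in WT and 0 and 0 in CKO. Unc5b was higher there, at 15.1 and 10.6 CPM in WT and 15.2 and 17.8 CPM in CKO. The median log2 difference of the members tested was -0.61 in endothelial-like, -0.27 in vessel-type and -0.30 in stellate-type nuclei, and the median over all genes tested was 0.01, -0.02 and 0.00. These members passed a filter on low counts and are not all 10.

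Endothelial-like nuclei of CKO replicate 1 fell mostly in a cluster of their own. The cluster led by Mecom and Fgd5 held 1240 and 219 WT nuclei and 13 and 139 CKO nuclei. The cluster led by Cdh4 and Gm46565 held 61 and 11 WT nuclei and 850 and 9 CKO nuclei, so CKO replicate 1 stood apart from the other 3 libraries here, CKO replicate 2 included. Other classes split by library too. Each hepatocyte-like cluster came mostly from a single library, with 1762 and 1047 WT and 923 and 1644 CKO nuclei. Macrophage-like clusters held 1444 nuclei of WT replicate 1, 2208 of CKO replicate 1, and 351 and 166 of the second replicates together. The mesenchymal-like cluster held 683 and 201 WT and 402 and 89 CKO nuclei. Hepatocyte markers, 10 in all, summed to 22697 and 22386 CPM in WT and 39065 and 30298 CPM in CKO vessel-type nuclei. Their part in the differences of Slit2, Slit3 and Robo4 was not tested. In bulk sums of this kind fewer Slit3-bearing nuclei and less Slit3 per nucleus cannot be told apart.

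The rest of the guidance pathway was followed with a list of 49 genes, made up of 11 other ligands, 11 other receptors and co-receptors, and 27 intracellular partners. In endothelial-like nuclei 34 could be tested, 20 had a negative difference, the median was -0.06 and 0 passed in either direction (edgeR). An unadjusted p under 0.05 was found for 3 of the 34, against 526 of all 10108 genes tested, and DESeq2 called 0. Flrt1 and Flrt2, membrane proteins that bind Unc5 receptors, were at -1.52 ± 0.55 and -1.16 ± 0.47, and Sdc4, a heparan sulfate proteoglycan, at 0.88 ± 0.26. In mesenchymal-like nuclei 35 could be tested, 24 were negative, the median was -0.12 and 0 passed. An unadjusted p under 0.05 was found for 5 of the 35, against 649 of all 8635 genes tested. The 3 with the smallest p there were Srgap3, a GTPase-activating partner of Robo receptors, at -1.87 ± 0.58, Flrt2 at -1.15 ± 0.36 and Magi2, a scaffold protein, at -0.82 ± 0.28. Their edgeR adjusted p-values were 0.462, 0.483 and 0.539.

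By role, the 4 other ligands tested in endothelial-like nuclei had a median of -0.79 and the 24 partners one of -0.05. The 6 other receptors tested there had a median of 0.10. In vessel-type nuclei 21 of the 49 could be tested, with 14 negative and a median of -0.14. In stellate-type nuclei it was 29, with 20 negative and a median of -0.14. None of them passed in either class (edgeR), and 1 in each had an unadjusted p under 0.05. Over all genes tested that p was found for 278 of 4175 in vessel-type and 343 of 6443 in stellate-type nuclei.

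The genes with the most similar levels were found by Pearson's correlation of log2(CPM + 1) over 40 class and library sums, which share libraries and depth, so r is given as a description. For Slit3 they were Arhgef25 (r = 0.88), Vegfc (0.74) and Gm26672 (0.68). Slit2 was followed by Arhgap8 and Sh2d4b (0.77 each) and F11r (0.75). For Ntn4 the genes were Mbd4 (0.84), Bmp6 (0.83) and Srgap1 (0.82), the last being a member of the pathway list. Robo2 was followed by Pde1a (0.90), Pakap and Carmn (0.89 each), and Ntn1 by Carmn (0.83), Daam2 (0.82) and Gm29683 (0.82). Robo1 had B3galt1 (0.89), Il1r1 (0.86) and Dapk2 (0.81), and Robo4 had the endothelial genes Cemip2, Erg and Emcn (0.78 each). Unc5b was nearest to Fndc3b and Pias3 (0.83 each) and Pdzrn3 (0.80). For Dcc the values were lower, with C130013H08Rik at 0.70, Gm17092 at 0.70 and Ccdc60 at 0.66, and Unc5c had too few UMIs to be compared.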

How the data were processed

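Nuclei from fresh-frozen liver were profiled with the 10x Genomics 3′ chemistry, and the deposited values are raw UMI counts per gene and barcode, made with Cell Ranger 5.0.1 on mm10 per the submitters' processing notes. The intron setting, annotation release and barcode selection are not given in the sources used here. The files give 32285 genes and 7 added sequences, which were not used.

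Members and lists were chosen with earlier results of these data known. Barcodes needed at least 500 genes, which removed none, and the highest Scrublet scores were removed at 0.8% per 1000 barcodes, or 4647 of 43664. Nuclei were clustered with scanpy 1.11.5 and leidenalg 0.10.2 (Python 3.11.15, 2000 variable genes without members and pathway genes, 30 principal components, 15 neighbours, resolution 1), giving 22 clusters. Within the endothelial-like and the mesenchymal-like class a second clustering used values centred per library (15 components). Names were given to clusters in which 3 or more markers of a class, each with 5 UMIs or more, lay 1.5 times above free RNA after adding 2 CPM to both. That naming rule was chosen after seeing the data, and a name means resemblance. Sub-clusters were named by markers raised over both free RNA and the other sub-clusters. Where none qualified, sinusoid-type or stellate-type was the default name, from markers raised over free RNA alone. Stellate sub-clusters led by Slc35b2 and by Tafa1, and several sinusoid ones, have default names. The Slc35b2 sub-cluster held 15.8% and 21.1% of WT and 37.0% and 49.2% of CKO stellate-type nuclei. The free RNA used for naming was the 10% of barcodes with the fewest UMIs. The share of free RNA in a class was estimated by scaling the profile of unnamed barcodes to secreted hepatocyte transcripts, or to mitochondrial ones in hepatocyte-like nuclei.

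UMIs were summed per class and library, for classes with at least 20 nuclei in every library. Endothelial sub-clusters with raised macrophage or cholangiocyte markers (189 and 106 nuclei) got no sub-class name but stayed in the endothelial-like sums. So did mesenchymal ones with raised endothelial, macrophage or cholangiocyte markers (61, 59 and 11 nuclei) in the mesenchymal-like sums. Genotypes were compared with edgeR 4.0.16 in R 4.3.3 (two-sided quasi-likelihood test, TMM scaling, genes kept by filterByExpr), with 2 libraries per genotype and the adjusted p threshold of 0.05, and with DESeq2 1.42.0 as an alternative. The SE is the log2 difference divided by the square root of the test's F. Fibroblast-type nuclei had too few nuclei to be fitted. Scripts were tested on simulated data. Gene positions are from GENCODE M21. Named are the 10 members, the 3 pathway genes with the smallest p in endothelial-like and in mesenchymal-like nuclei, and the 3 genes most like each member with at least 100 UMIs.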

Additional observations from a re-analysis of the deposited data

Results flagged for a closer look

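Slit3 moved in opposite directions in 2 kinds of nuclei, and the difference between them was not tested. Both CKO libraries were below both WT libraries in vessel-type nuclei (133 and 177 CPM in WT, 16.8 and 0 CPM in CKO) and above them in stellate-type nuclei (11.3 and 10.6 CPM in WT, 13.8 and 17.2 CPM in CKO). The log2 ratio of the mean CKO to the mean WT level, with 1 CPM added, differed by -4.52 between vessel-type and stellate-type nuclei, and by -4.16 between all endothelial-like and stellate-type nuclei. The stellate-type values rest on 12, 2, 9 and 2 UMIs.

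Dcc was lower in both CKO libraries in cholangiocyte-like nuclei and higher in both in macrophage-like nuclei, a difference of -1.38 on the same scale, which was not tested. The levels were 1.73 and 1.46 CPM in WT and 0.675 and 0 CPM in CKO cholangiocyte-like nuclei, and 2.73 and 1.499 CPM in WT and 3.15 and 3.21 CPM in CKO macrophage-like nuclei. The cholangiocyte-like values rest on 8 and 1 UMIs in WT and 1 and 0 in CKO. Free RNA subtraction left 2 and 0 UMIs in WT and 0 and 0 in CKO there, so the genotypes overlapped. In macrophage-like nuclei CKO stayed higher, at 3.70 and 0 CPM in WT and 5.73 and 12.0 CPM in CKO. The macrophage-like values rest on 28 UMIs in all, so both are near the limit of detection.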

How the results depend on the processing

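Depth limits the vessel-type results, with 24 such nuclei in CKO replicate 2, and the fibroblast-type, smooth-muscle-type, central-vein-type and lymphatic-type values, with 1, 3, 4 and 0. Of 44 fitted member differences, 517 alternative values were computed. 43 moved by over 1 SE, 67 had the other sign, and 16 of the 44 never changed sign. Slit3 ranged from -8.16 to -2.67 in vessel-type nuclei and from -8.54 to -3.15 in endothelial-like nuclei. The lowest values come from fits in which CKO has no UMI, depend on the prior count and are no bound. Slit2 in vessel-type nuclei ranged from -2.19 to -1.50, Robo2 in stellate-type nuclei from -0.59 to -0.28 and Unc5b in stellate-type nuclei from -0.85 to -0.54. Of 670 alternative mean levels 62 moved by at least 1 SD over the 4 libraries, 50 of them with free RNA subtracted.

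Genes called depended on the setting, and the cause was not tested. With no count filter they were 91 in endothelial-like, 13 in vessel-type, 46 in sinusoid-type, 148 in mesenchymal-like, 23 in stellate-type, 105 in cholangiocyte-like and 105 in macrophage-like nuclei. DESeq2 called 1 in endothelial-like, sinusoid-type, mesenchymal-like, stellate-type and macrophage-like nuclei each, 2 in hepatocyte-like and 0 in vessel-type nuclei. In vessel-type nuclei relative log expression scaling and free RNA subtraction also gave 0. With at least 1000 genes per barcode the counts were 119 in endothelial-like, 1 in cholangiocyte-like and 175 in macrophage-like nuclei. In cholangiocyte-like nuclei resolution 2 gave 2 and clustering with the members gave 18, and without doublet removal hepatocyte-like nuclei gave 2. Members called with no count filter were Slit3 in endothelial-like and vessel-type nuclei (1 each) and Dcc in mesenchymal-like nuclei (1).

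The labels pair no libraries, and the replicate numbers give only 2 pairs. Same-numbered libraries correlated at 0.066 to 0.272 in their deviations from the genotype means. With replicate number as a block, genes called were 13 in endothelial-like, 5 in vessel-type, 48 in stellate-type, 5 in cholangiocyte-like and 14 in macrophage-like nuclei, and 1 member was called, Slit3 in vessel-type nuclei (edgeR adjusted p = 0.0497).

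Leaving out 1 library at a time gave 0 to 418 genes called in endothelial-like, 4 to 117 in vessel-type, 0 to 177 in sinusoid-type, 27 to 341 in mesenchymal-like, 0 to 133 in stellate-type, 3 to 223 in cholangiocyte-like, 0 to 304 in macrophage-like and 0 to 229 in hepatocyte-like nuclei. Members called were 0 to 2 in endothelial-like nuclei and 0 to 1 in vessel-type, sinusoid-type and mesenchymal-like nuclei. Without CKO replicate 1, Ntn4 passed in endothelial-like nuclei (-1.35, edgeR adjusted p = 0.0269), as did Slit3, and without CKO replicate 2 Dcc passed in mesenchymal-like nuclei (3.80, edgeR adjusted p = 0.0337). Not run, because a library had under 20 nuclei, were vessel-type nuclei at 1000 genes, at resolution 2 and with the members in the clustering, and sinusoid-type and stellate-type nuclei at 1000 genes.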
